A study of Mus musculus with 12 samples.

Results

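The cytosolic ribosomal protein genes encode the protein part of the ribosome that translates nuclear-encoded mRNAs. They were chosen by name: protein-coding genes with a symbol of the form Rpl or Rps and a number, together with Rpsa, Rplp0, Rplp1, and Rplp2, and without the Rps6 kinases. Of 83 such genes among the 46078 counted, 82 had 10 or more counts in at least 3 libraries, 50 of the large subunit and 32 of the small subunit. The gene left out was Rpl10l, a copy of Rpl10, which had 1 count in a single library and 0 in the other 11.

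The study knocked down Rad21, which encodes a subunit of the cohesin ring, in LSK cells (lineage-, Sca-1+, c-Kit+), the stem and progenitor fraction of mouse bone marrow, and asked how gene expression changed. All cells were C57BL/6 and carried a lentivirus encoding GFP and an shRNA, which targeted Rad21 in the shRad21 groups and luciferase in the shLuci control groups, so infection and the vector were shared by every group. For culture, infected LSK cells were kept for 3 d, and those positive for GFP and Sca-1 and negative for CD48 were taken. For in vivo, infected LSK cells were transplanted, and GFP+ cells of the LSK gate were reisolated from the recipients 3 mo later by the labels, a time that the study's text gives as longer. Each of the 4 groups had 3 libraries. The age of the animals and the number of mice behind a library were not given in the sources used here, so p-values measure the spread between these libraries, which may be technical.

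A ribosome has a large subunit, which forms peptide bonds, and a small subunit, which reads the mRNA. Each ribosomal protein is needed in a fixed ratio to the others, and assembly of the proteins with ribosomal RNA begins in the nucleolus. In blood formation, loss of 1 copy of several of these genes is known to impair red cell production, as in Diamond-Blackfan anemia and the 5q- syndrome, and free Rpl5 and Rpl11 are known to stabilize p53. Ribosomal protein mRNAs have also left many processed pseudogenes in the genome, intronless copies that can be nearly identical to the spliced mRNA.

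A read from a stretch that a copy shares cannot be assigned by its sequence. Reads were 51 bases long, and a read was here represented by each 51-base window of the coding sequence of the GENCODE M21 principal transcript (GRCm38). Windows of some members are printed below to show the range, each 5′ to 3′ on the coding strand. Capitals mark bases that differ from the copy or paralog that the window is compared with. In Rps3 (a small subunit protein at the mRNA entry), bases 340 to 390 of the coding sequence span an intron between chr7:99480024-99481707 (minus strand), and the closest annotated copy is the processed pseudogene Gm8130, with C2G and T38C counted from the first base of the window.
Rps3: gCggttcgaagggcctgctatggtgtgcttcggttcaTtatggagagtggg
Gm8130: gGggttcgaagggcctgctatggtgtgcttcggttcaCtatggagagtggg
In Rpl4 (a large subunit protein that lines the exit tunnel), bases 604 to 654 at chr9:64176998-64177048 (plus strand) differ from the processed pseudogene Gm5835 by G14T and T33C.
Rpl4: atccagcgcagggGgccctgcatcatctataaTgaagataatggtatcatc
Gm5835: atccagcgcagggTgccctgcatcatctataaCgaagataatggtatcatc
In Rpl14, bases 301 to 351 at chr9:120573764-120573814 (plus strand) are identical in Rpl14-ps1, so a read from this window cannot be assigned to either gene by its sequence.
Rpl14: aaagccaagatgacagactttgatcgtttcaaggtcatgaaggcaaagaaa
Rps27 and Rps27l, a pair of paralogs of the small subunit, differ by 10 bases in bases 102 to 152 of each coding sequence, at chr3:90213008-90213206 (minus strand, over an intron) and chr9:66946926-66947623 (plus strand, over an intron). The Rps27 window is also found unchanged in 2 other annotated genes, whereas the Rps27l window is found unchanged in no other. Its closest copy, the processed pseudogene Gm14706, differs by A49T, and the capitals here mark only differences between the paralogs.
Rps27: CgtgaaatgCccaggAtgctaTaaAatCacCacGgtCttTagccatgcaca
Rps27l: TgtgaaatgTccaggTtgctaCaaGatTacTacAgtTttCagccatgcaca

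Over whole coding sequences, 79 of the 82 members shared at least 1 window with a pseudogene, 28 had no window of their own, and 3, Rpl3l and Rpl39l among them, shared none. The exons of 38 members overlapped those of another gene, such as a small nucleolar RNA in an intron of a longer transcript. The members' counts summed over the 12 libraries ranged from 96 for Rpl39l to 403154 for Rpl4, a 4200-fold range, although most of their proteins are needed in nearly equal numbers. Among the highest levels per kilobase of coding sequence, given as CPM (the count as a share of the library, after TMM scaling over the 12 libraries), were 2050 for Rps3, 1274 for Rpl4, and 1234 for Rpl8, genes of which 92.3%, 80.3%, and 91.4% of the windows were their own. Rpl24 was at 2.66 and Rpl23a at 0.962 CPM per kilobase, and both had no window of their own. Across the 82 members, the level per kilobase and the percent of windows of their own had a Spearman rho of 0.686 and a Pearson r of 0.425, given as a description over genes that share the same libraries. In the 27 members with the lowest percent of own windows the median level was 26.9 CPM per kilobase, in the next 27 it was 127, and in the 28 with the highest percent it was 395. Some members departed from this order. Rpl41, which encodes a very short protein, was at 1060 CPM per kilobase without a coding window of its own. This level divides the counts of the whole gene by a coding sequence of 75 bases. Its transcript has 544 bases, and 58.5% of the windows of the whole transcript were its own. Rpl3l and Rpl39l, paralogs of Rpl3 and Rpl39 known from muscle and testis, were at 0.728 and 2.60 although all of their windows were their own. Levels of different members were therefore not compared further, and each member is compared below with itself across groups. How the reads of shared windows were divided was not tested, because the reads were not used here.

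**Figure D1:**
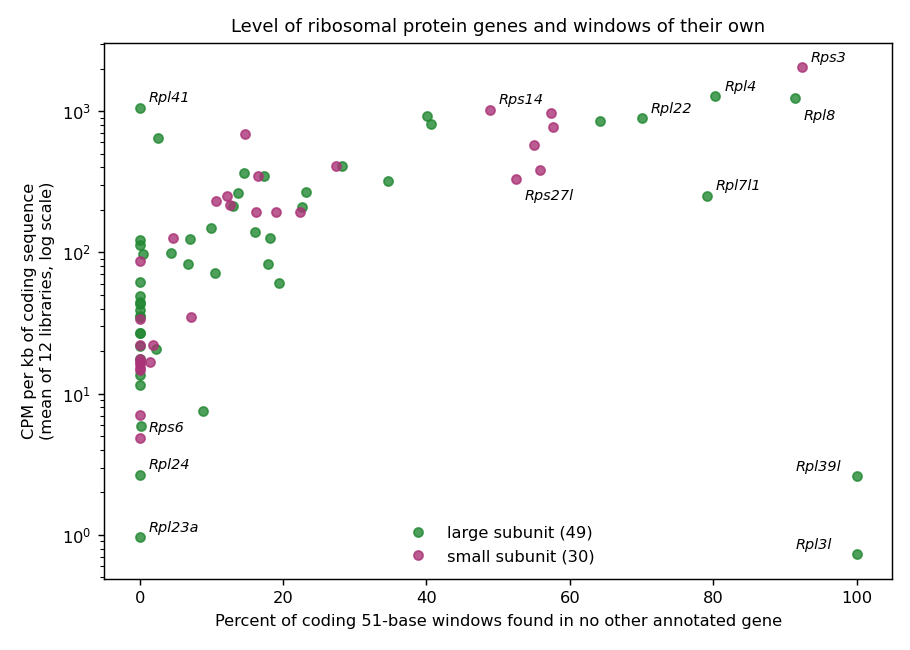
Level of 79 of the 82 ribosomal protein genes (points; y axis, CPM per kilobase of coding sequence, mean of 12 libraries, log scale) against the percent of its 51-base coding windows found in no other annotated gene (x axis). Members with few windows of their own lie lower, with Rpl41 at 1060, over a coding sequence of only 75 bases, as an exception. The paralogs Rpl3l and Rpl39l lie at 0.728 and 2.60 with 100% own windows.

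The start of transcription is the other sequence feature for which these genes are known. Their mRNAs commonly begin with a C and a run of pyrimidines, the 5′ terminal oligopyrimidine (TOP) motif, through which mTOR and LARP1 control their translation. RefSeq promoters of GRCm38 were found for 62 of the 82 members. A run of 8 or more C or T bases (on the sense strand) began or ended within 5 bases of the listed start or spanned it in 33.9% of them and in 9.63% of all 27025 promoters. Bases around the start are printed for 3 members with such a run and for Rpl10, which has none, all described below, with the longest pyrimidine run at the start in capitals and the listed start as the sixteenth base.
Rplp2 (chr7:141447636-141447665, plus strand): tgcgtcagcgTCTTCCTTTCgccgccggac
Rpl18 (chr7:45718056-45718085, plus strand): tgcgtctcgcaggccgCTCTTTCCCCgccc
Rps18 (chr17:33955651-33955680, minus strand): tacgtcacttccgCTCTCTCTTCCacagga
Rpl10 (chrX:74270801-74270830, plus strand): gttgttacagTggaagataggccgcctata
The letters CCGGAAG, as bound by ETS factors, were in 40.3% of the members' 300-base promoters and in 9.12% of all promoters, AAGATGG, as bound by YY1, in 14.5% and 6.48%, and TATAAA in 9.68% and 14.2%, all on either strand. The listed starts are RefSeq's and were not measured in these cells.

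Rad21 was first examined as a check of the labels. In culture, it was at 360, 394, and 381 CPM in shLuci and 145, 129, and 121 CPM in shRad21 (log2 fold change −1.52 ± 0.09 SE, edgeR adjusted p = 1.16e-05). In vivo, it was at 124, 133, and 131 CPM and at 46.1, 51.4, and 46.5 CPM (−1.43 ± 0.07, adjusted p = 8.82e-06). Each knockdown library lay below each control library of its experiment. The libraries held between 15235129 and 29846689 counts. Of 10 genes used as markers of LSK cells, all were counted in every library, with Kit between 253 and 1032 CPM and Cd34 between 865 and 1546 CPM.

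Ribosomal protein genes took a small share of all counts, which was higher in each culture library than in any in vivo library. In culture, the 82 members held 2.23%, 1.99%, and 1.64% of the counts in shLuci and 1.61%, 1.73%, and 1.64% in shRad21, means of 1.95% ± 0.29 and 1.66% ± 0.06 (SD, n = 3). The shLuci libraries differed among themselves, and shLuci replicate 3 lay within the range of shRad21, so the groups overlapped. In vivo, the members held 0.707%, 0.725%, and 0.748% of the counts in shLuci and 0.698%, 0.624%, and 0.684% in shRad21, means of 0.727% ± 0.020 and 0.669% ± 0.039 (SD, n = 3). These groups did not overlap, with a gap smaller than the spread within either group. Another 260 pseudogenes, named after 58 of the members, held 0.327% ± 0.030 and 0.287% ± 0.015 of the counts in shLuci and shRad21 in culture. In bulk libraries, fewer cells of a type and less RNA per cell cannot be told apart.

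**Figure D2:**
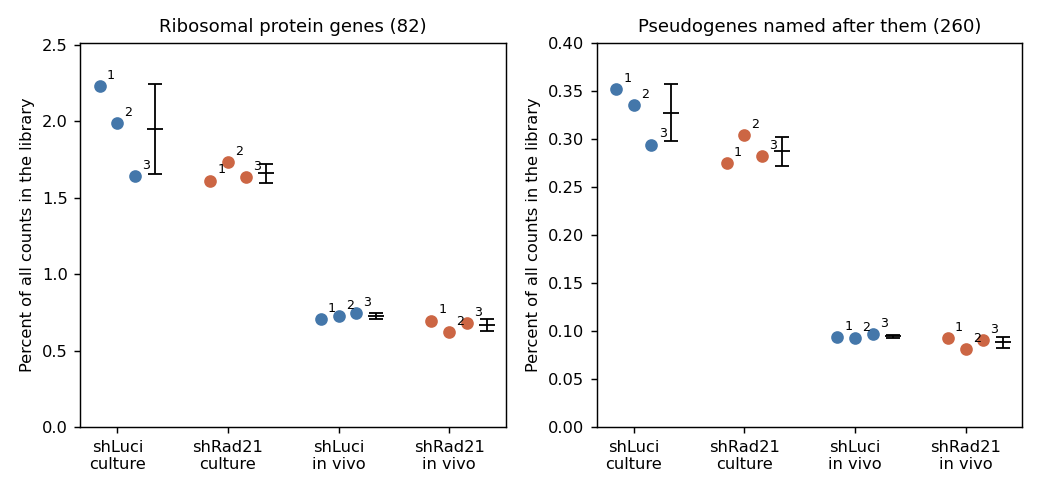
Percent of all counts on the 82 ribosomal protein genes (left) and on 260 pseudogenes named after them (right) in each library (points, numbered by replicate), with the mean and SD of each group beside them (n = 3). In culture, shLuci replicate 3 at 1.64% lies among the shRad21 libraries, and the in vivo libraries lie between 0.624% and 0.748%.

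In cultured cells, most members had slightly lower values in shRad21 than in shLuci, and few passed the test singly. Of 81 members tested, 71 had a negative log2 fold change, and the median over the members was −0.21 beside −0.0039 over all 15543 genes tested. The test (adjusted p under 0.05) called 8 members lower, 5 of the large and 3 of the small subunit. That is 9.88% of the members, against 8.06% of all genes called lower, so the share of single calls was near that of all genes. It called no member higher, beside 6.18% of all genes. At an unadjusted p under 0.05, 24 members were lower, beside 14.3% of all genes, and 1, Rpl3l, was higher, beside 12.7%. DESeq2 called 12 members lower and none higher. Of all 26672 genes with a count in culture, it called 1318 lower (4.94%), a share over a wider set than the 15543 genes above. In 22 members, each shRad21 library was below each shLuci library, and this was so for 15.8% of all genes tested. The median was −0.21 over 49 large subunit members and −0.20 over 32 small subunit members.

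Among the large subunit members called, Rpl10, which joins the subunit late in its maturation and whose product is altered in some T cell leukemias, differed most. Rpl10 was at 35.4, 34.6, and 36.8 CPM in shLuci and 28.3, 25.4, and 22.4 CPM in shRad21. Its log2 fold change was −0.49 ± 0.10 (SE, adjusted p = 0.00959), a level 0.713 times that of the control, with a wide gap between the groups. All coding windows of Rpl10 are shared with other genes, 15 in all, whereas 59 of the 749 windows of its whole transcript are its own. Which of these windows its counted reads came from was not tested. Rpl29 was at 54.2, 50.2, and 49.3 CPM in shLuci and 39.8, 41.5, and 35.2 CPM in shRad21 (−0.40 ± 0.09, adjusted p = 0.0148). Rpl32 was at 501, 487, and 482 CPM and at 364, 420, and 368 CPM (−0.35 ± 0.08, adjusted p = 0.0154). For both, the shLuci libraries lay close together and above each shRad21 library. Rpl18 was at 133, 121, and 115 CPM and at 101, 103, and 97.1 CPM (−0.29 ± 0.08, adjusted p = 0.0313).

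The ribosomal stalk, formed by Rplp0, Rplp1, and Rplp2, recruits the elongation factors that drive translation. All 3 genes had a negative log2 fold change in culture, and only Rplp2 passed the test. Rplp2 was at 207, 182, and 178 CPM in shLuci and 151, 153, and 139 CPM in shRad21 (−0.36 ± 0.08, adjusted p = 0.0158). Rplp1 was at 677, 545, and 394 CPM in shLuci and 463, 455, and 423 CPM in shRad21 (−0.27 ± 0.16, adjusted p = 0.307). Rplp0 was at 1343, 1090, and 877 CPM in shLuci and 930, 975, and 951 CPM in shRad21 (−0.21 ± 0.13, adjusted p = 0.339). In Rplp1 and Rplp0, shLuci replicate 3 was the lowest library of all 6 and the shRad21 libraries were close together.

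Of the small subunit, 3 members were called, among them Rps19 and Rps2. Rps19, the gene most often mutated in Diamond-Blackfan anemia, was at 119, 97.2, and 87.4 CPM in shLuci and 73.4, 78.7, and 77.0 CPM in shRad21 (−0.40 ± 0.11, adjusted p = 0.0288). Rps2, which lies at the mRNA entry with Rps3, was at 293, 256, and 236 CPM and at 198, 214, and 184 CPM (−0.40 ± 0.10, adjusted p = 0.0186). The groups did not overlap in either. With the counts of its named pseudogenes added, Rps19 missed the threshold (−0.39, adjusted p = 0.0525), and with offsets for GC content and length Rps19 (adjusted p = 0.0513) and Rpl18 (adjusted p = 0.0664) did so.

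**Figure D3:**
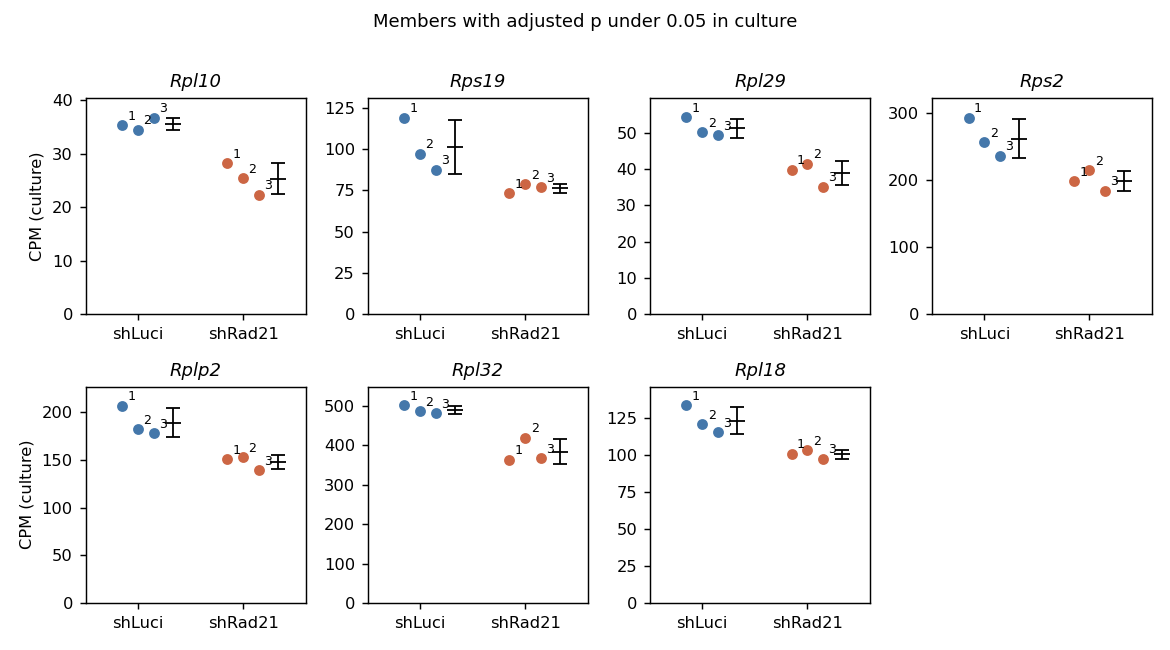
CPM in each culture library (points, numbered by replicate) of 7 of the 8 members with an adjusted p under 0.05, with the mean and SD of each group beside them (n = 3); y axes start at 0. In each panel the 3 shRad21 libraries lie below the 3 shLuci libraries, and the largest log2 fold change is that of Rpl10, with means of 35.6 and 25.4 CPM.

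The member with the lowest log2 fold change, Rps14, was not called. Rps14, which is deleted in the 5q- syndrome, was at 1175, 665, and 453 CPM in shLuci and 484, 564, and 522 CPM in shRad21 (−0.55 ± 0.26, adjusted p = 0.203). The 3 shLuci libraries spanned the whole range of the shRad21 libraries and beyond. Of the 12 members linked to Diamond-Blackfan anemia or the 5q- syndrome, 11 had a negative log2 fold change (median −0.22, highest 0.06 for Rpl15), and 1, Rps19, was called. Rpl5 and Rpl11, which join the 5S ribosomal RNA, had log2 fold changes of −0.22 ± 0.10 (adjusted p = 0.173) and −0.22 ± 0.14 (adjusted p = 0.349). Rps3, the member with the highest level per kilobase, also had a wider spread in shLuci than in shRad21. Rps3 was at 2866, 2388, and 1777 CPM in shLuci and 1740, 1974, and 1917 CPM in shRad21 (−0.32 ± 0.15, adjusted p = 0.189).

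The count of calls in culture rested on which libraries were used. Without shLuci replicate 3, 36 members were called lower, and without shRad21 replicate 3 none was, beside 9.81% and 5.53% of all genes. The members' median was −0.27 and −0.20 in these fits, and it was nearest to 0 without shLuci replicate 1, at −0.12. Without each of the other libraries (shLuci replicates 1 and 2, shRad21 replicates 1 and 2), the count was 5, 4, 3, and 5. Of all genes, 7.06%, 5.08%, 5.76%, and 5.03% were called lower in these fits. Over all 6 fits with 1 library left out, Rpl10 and Rpl29 were each called in 5, Rplp2 in 4, Rpl32 in 3, and Rps2 in 2. Rps19 and Rpl18 were called in 1, the fit without shLuci replicate 3. The libraries of culture with the same replicate number deviated together over all genes, and with the replicate number as a block 15 members were called lower, the 8 above and Rpl4, Rpl8, Rpl12, Rpl14, Rps16, Rps18, and Rps27l, beside 11.2% of all genes. Rpl8 was at 1575, 1474, and 1367 CPM in shLuci and 1183, 1288, and 1188 CPM in shRad21 (−0.27 ± 0.09, adjusted p = 0.0621, 0.0372 with the block).

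**Figure D4:**
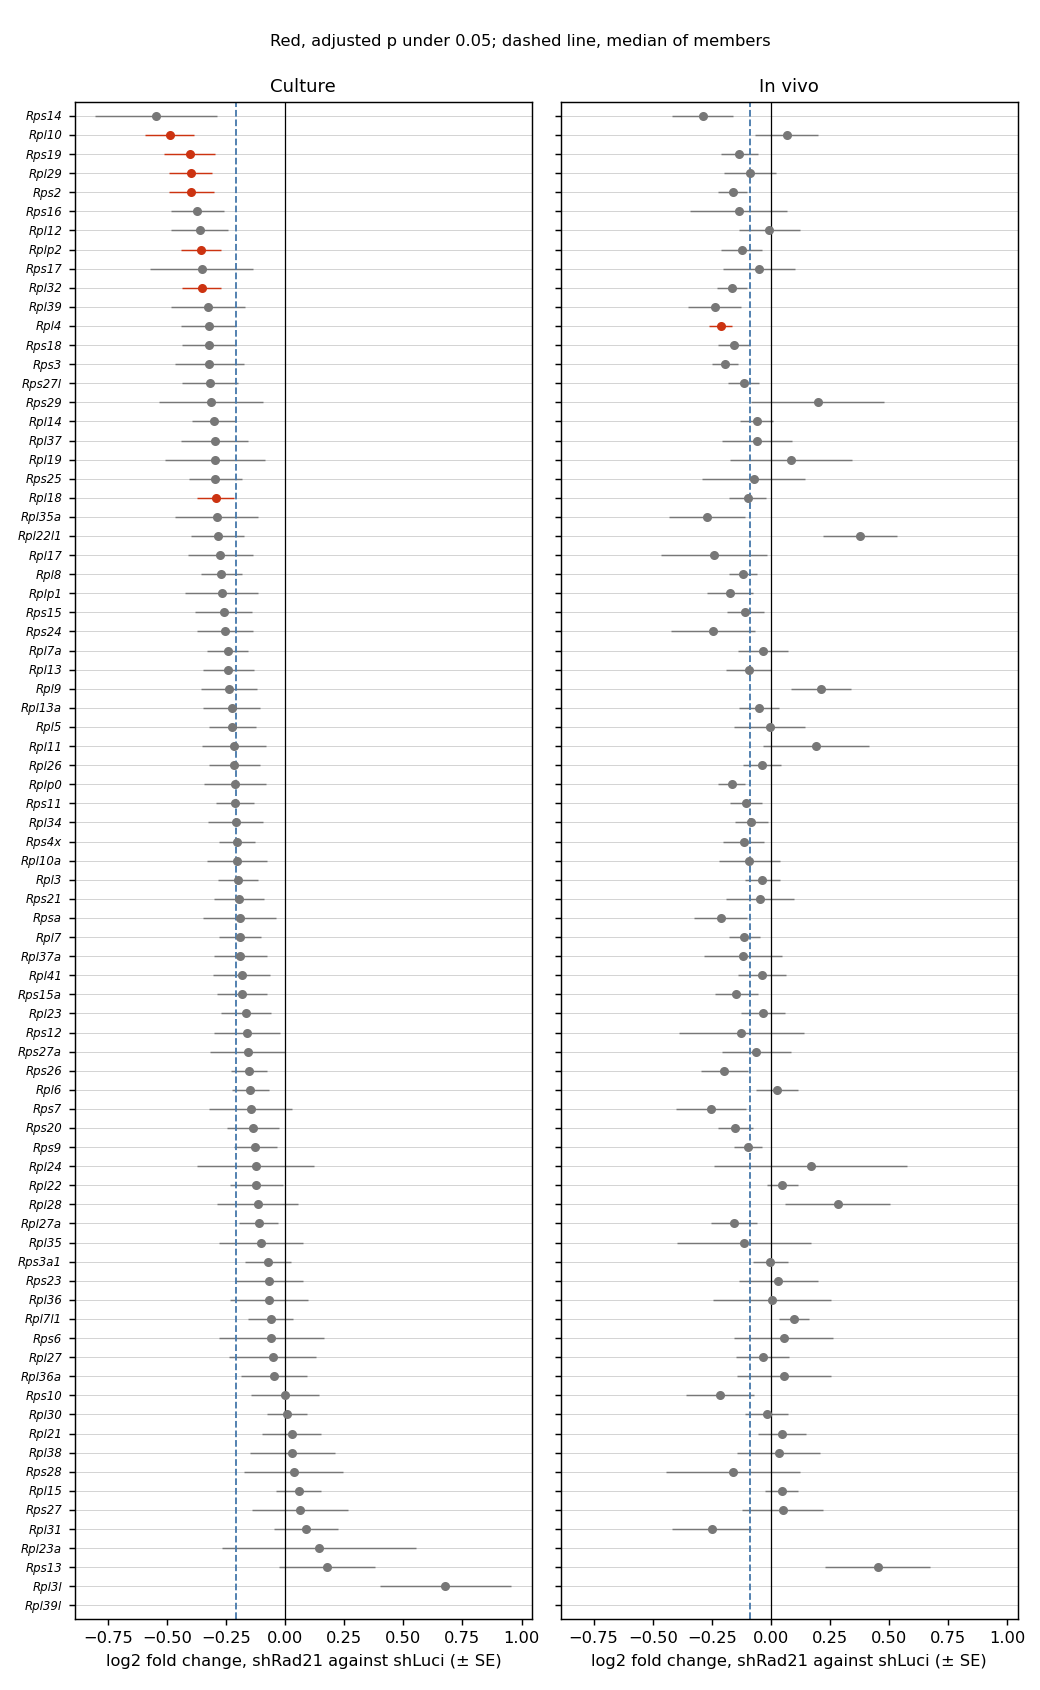
Log2 fold change (shRad21 against shLuci, ± SE) of 79 of the 82 ribosomal protein genes in culture (left) and in vivo (right), in the order of the culture values. Red points have an adjusted p under 0.05, 7 of them in culture and 1 in vivo, and dashed lines mark the medians of all members tested, −0.21 and −0.09; Rpl39l was tested in neither.

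Other genes moved with these differences. Myc, a transcription factor known to raise the expression of ribosome genes, fell in culture from 354 ± 27.5 to 165 ± 10.8 CPM (SD, n = 3, log2 fold change −1.11 ± 0.09 SE, adjusted p = 3.18e-05). The summed level of 10 granulocyte and monocyte markers ranged from 209 to 286 CPM in shLuci and from 175 to 188 CPM in shRad21, with 5 of the 6 tested called lower, among them Csf1r and Mpo. S100a8 and S100a9, which define granulocytes, were each at 0 in 4 of the 6 culture libraries and at most at 0.263 CPM. The sum of 8 erythroid markers ranged from 140 to 173 CPM in shLuci and from 75.2 to 103 CPM in shRad21, most of it Hbb-bt, the only one called (−0.93, adjusted p = 0.00103), while the other 2 tested, Klf1 and Epor, were at 0.73 and 0.18 and did not pass. Of 5 megakaryocyte and platelet markers tested, 3 were called higher and 2 lower. The 10 LSK markers had calls in both directions. Of them, Kit (log2 fold change −1.42, adjusted p = 1.53e-05) and Flt3 (−1.12, adjusted p = 0.00168) fell, and Slamf1 (1.21, adjusted p = 0.000803), Mecom, Hlf, and Meis1 rose. Their part in the levels of ribosomal protein genes was not tested.

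In vivo, a single member passed the test. Of 79 tested, 59 had a negative log2 fold change, with a median of −0.09 beside −0.0019 over all 15938 genes tested. Without shLuci replicate 3 or without shRad21 replicate 2 the median was −0.04, with 51 and 47 of 79 negative. The member that passed was Rpl4, called lower, 1.27% of the members beside 5.32% of all genes. None was called higher, beside 5.65%. At an unadjusted p under 0.05, 8 members (10.1%) were lower, beside 11.7% of all genes, and 1, Rpl22l1, was higher, beside 12.4%. DESeq2 called 3 lower and none higher. Of all 31506 genes with a count in vivo, it called 1053 lower (3.34%), a share over a wider set than the 15938 genes above. In 16 members, each shRad21 library was below each shLuci library, beside 14.5% of all genes. In 1 member, Rpl28, each shRad21 library was above each shLuci library, beside 2340 of all 15938 genes tested. The median was −0.12 over the 32 small subunit members and −0.04 over the 47 large subunit members tested.

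Rpl4 was at 974, 1014, and 997 CPM in shLuci and 866, 855, and 856 CPM in shRad21. Its log2 fold change was −0.21 ± 0.05 (SE, adjusted p = 0.0216), a small difference between groups whose libraries were close together. The call was lost without shLuci replicate 2, shLuci replicate 3, shRad21 replicate 1, or shRad21 replicate 3, with adjusted p between 0.0567 and 0.0907. It was also lost with no filter (adjusted p = 0.14, with Rps14 the single call), in the model of all 12 libraries (0.133), and with GC and length offsets and the block (0.0729, with Rps3 the single call). Rps3 was at 816, 872, and 853 CPM and at 739, 710, and 772 CPM (−0.19 ± 0.06, adjusted p = 0.0550). Rplp0 was at 482, 494, and 506 CPM and at 451, 417, and 454 CPM (−0.17 ± 0.06, adjusted p = 0.104). In both, the groups did not overlap, and neither passed the threshold. Rps3 passed it with DESeq2 (adjusted p = 0.0178), with at least 10 counts in every library (0.0454), and with GC and length offsets without (0.0286) and with the block (0.0394).

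Rps13, a member with few counts, had the highest log2 fold change in vivo, 0.45 ± 0.22 (adjusted p = 0.253), with 3.46, 4.27, and 3.76 CPM in shLuci and 6.47, 4.26, and 4.97 CPM in shRad21. Of the reads counted on Rps13 and on the 7 pseudogenes named after it, 94.4% were on the pseudogenes, and with these added the log2 fold change of Rps13 was −0.10. Of the 12 members linked to anemia, 10 had a negative log2 fold change in vivo, led by Rps14 (−0.29 ± 0.13, adjusted p = 0.210), and none was called. The 5S partners Rpl5 (−0.0045 ± 0.15, adjusted p = 0.990) and Rpl11 (0.19 ± 0.23, adjusted p = 0.678) did not pass the test. The members described above as called in culture had in vivo log2 fold changes of 0.07 for Rpl10, −0.13 for Rps19, −0.09 for Rpl29, −0.16 for Rps2, −0.12 for Rplp2, −0.17 for Rpl32, and −0.10 for Rpl18.

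In vivo too, markers moved with the knockdown. The summed level of the granulocyte and monocyte markers ranged from 2233 to 2786 CPM in shLuci and from 1841 to 2002 CPM in shRad21, that of 7 B cell markers from 989 to 2732 and from 806 to 1662 CPM, and that of 6 megakaryocyte and platelet markers from 269 to 330 and from 631 to 788 CPM. No marker of the first list was at 0 in any in vivo library. The sum of the T cell markers, most of it Lck, ranged from 78.8 to 96.7 CPM in shLuci and from 29.6 to 32.7 CPM in shRad21. That of the erythroid markers ranged from 119 to 194 and from 86.0 to 114 CPM. The sum of the mast cell and basophil markers ranged from 81.0 to 118 and from 129 to 214 CPM, most of it Cpa3. Of the 5 mast cell and basophil markers tested, 2 were called higher, and the other 3 had a negative log2 fold change. Of the 10 LSK markers, 3 were called lower and 4 higher. Their part in the members' levels was not tested.

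The knockdown effects in culture and in vivo were compared in a fit over all 12 libraries, which tests whether the change of a member differed between the experiments. No member passed the threshold in either direction, beside 4.67% of all 17050 genes tested, and at an unadjusted p under 0.05 4 members had a more negative effect in culture, beside 9.49% of all genes, and 1, Rpl3l, a more positive one, beside 8.19%. DESeq2 called 2 members, Rpl22l1 and Rpl10, both with a more negative effect in culture, beside 2.28% of all 32923 genes with a count. With edgeR, Rpl22l1 was called with no filter and without shLuci replicate 3 of culture, shLuci replicate 2 in vivo, or shRad21 replicate 2 in vivo, and Rpl10 without shLuci replicate 3 in vivo (adjusted p between 0.000506 and 0.0451). For Rpl22l1 the difference of the log2 fold changes (culture minus in vivo) was −0.66 ± 0.20 (SE, edgeR adjusted p = 0.0759), and for Rpl10 it was −0.55 ± 0.16 (edgeR adjusted p = 0.0782). The median difference over the members was −0.12, with 66 of 82 negative. It was −0.04, with 50 of 82 negative, without shLuci replicate 1 of culture, and −0.19 without shLuci replicate 3 of culture or shRad21 replicate 2 in vivo. Of the 79 members tested in both experiments, 56 had a negative log2 fold change in both and 5 a positive one in both.

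In some of the paralog pairs, a related gene can take the place of a ribosomal protein. Rpl10, whose copy Rpl10l was left out by the count minimum, was called lower in culture, as described above. No member of the other pairs passed the test in either experiment. With the replicate block, Rps27l was called lower in culture (−0.30, adjusted p = 0.0199). Rpl22l1, which can replace Rpl22 in the ribosome, was at 100, 86.0, and 71.0 CPM in shLuci and 69.9, 68.4, and 72.5 CPM in shRad21 in culture (−0.29 ± 0.11, adjusted p = 0.129). In vivo, it was at 16.3, 21.2, and 16 CPM and at 26.4, 19.4, and 23.7 CPM (0.38 ± 0.16, adjusted p = 0.177). The direction of its values thus differed between the experiments, with overlapping groups in both. Rpl22 itself was at −0.12 ± 0.11 (adjusted p = 0.557) in culture and 0.05 ± 0.07 (adjusted p = 0.735) in vivo. Rpl3l was at 1.12, 0.772, and 1.45 CPM in shLuci and 2.06, 1.48, and 1.81 CPM in shRad21 in culture (0.68 ± 0.28, adjusted p = 0.142). It was the only member whose shRad21 libraries all lay above the shLuci libraries there, beside 2478 of all 15543 genes tested. Rpl3 was at −0.20 ± 0.08 (adjusted p = 0.155). Rps27l, which is known as a p53 target, was at −0.32 ± 0.12 (adjusted p = 0.11) in culture and −0.12 ± 0.07 (adjusted p = 0.335) in vivo, and Rps27 at 0.06 ± 0.20 (adjusted p = 0.893) and 0.05 ± 0.17 (adjusted p = 0.905). Rpl7l1 was at −0.06 ± 0.10 (adjusted p = 0.742) and 0.10 ± 0.06 (adjusted p = 0.410), and Rpl7 at −0.19 ± 0.09 (adjusted p = 0.195) and −0.11 ± 0.07 (adjusted p = 0.341). Rpl39l was tested in neither experiment, with 0, 2, and 1 counts in shLuci and 9, 10, and 0 counts in shRad21 in vivo.

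The largest differences of the members were those between control cells of the experiments. The library kit (TruSeq in culture, SMART-Seq v4 with Nextera XT in vivo), the sorted population, the sequencing lane, and the setting all differ in full between them and cannot be told apart. Of 82 members tested, 67 (81.7%) were called higher in cultured than in reisolated shLuci cells, beside 37.1% of all genes, and 4 (4.88%) lower, beside 37.1%. The median log2 difference of the members was 1.31, compared with −0.0062 over all genes. Among the highest were small subunit members. Rps21 was at 189 ± 30 CPM in culture and 14.3 ± 1.2 CPM in vivo (SD, n = 3, log2 difference 3.72 ± 0.13 SE, adjusted p = 5.09e-12). Rps4x, on the X chromosome, was at 352 ± 19 and 40.9 ± 0.6 CPM (3.10 ± 0.08). The log2 difference was 1.64 ± 0.12 for Rps3 and 1.46 ± 0.09 for Rpl4. By the percent of own windows, the median log2 difference was 0.82 in the lowest 27 members, 1.52 in the next 27, and 1.65 in the highest 28, given as a description.

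For several members this difference changed when the counts of named pseudogenes were added. Rps16 had the highest value, at 82.6 ± 13.9 CPM in culture and 3.52 ± 0.24 CPM in vivo (4.55 ± 0.13), and with the counts of its 2 named pseudogenes added it was 1.96. The members called lower in culture were Rps27 (−1.01 ± 0.19), Rpsa (−0.89 ± 0.14), Rps13 (−0.85 ± 0.22), and Rpl21 (−0.51 ± 0.11). With the pseudogene counts added, Rpsa (1.09, adjusted p = 2.45e-06) and Rps13 (0.49, adjusted p = 0.000108) were higher in culture instead. Of the reads on Rpsa and its 9 named pseudogenes, 75.8% were on the pseudogenes. Rpl19, with 92.1% of its sum on pseudogenes, moved from 0.03 to 2.25, and Rpl38, with 89.1%, from 1.18 to 2.82. The paralogs Rps27l (−0.06 ± 0.11, adjusted p = 0.632) and Rpl7l1 (−0.03 ± 0.08, adjusted p = 0.749), with 52.5% and 79.1% own windows, did not pass the test, whereas Rpl22l1 was higher in culture (2.44 ± 0.15). Annotated copies under other names, such as Gm8130 for Rps3, were not added, so these sums are partial. The contribution of transcription from the pseudogenes themselves was not tested.

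**Figure D5:**
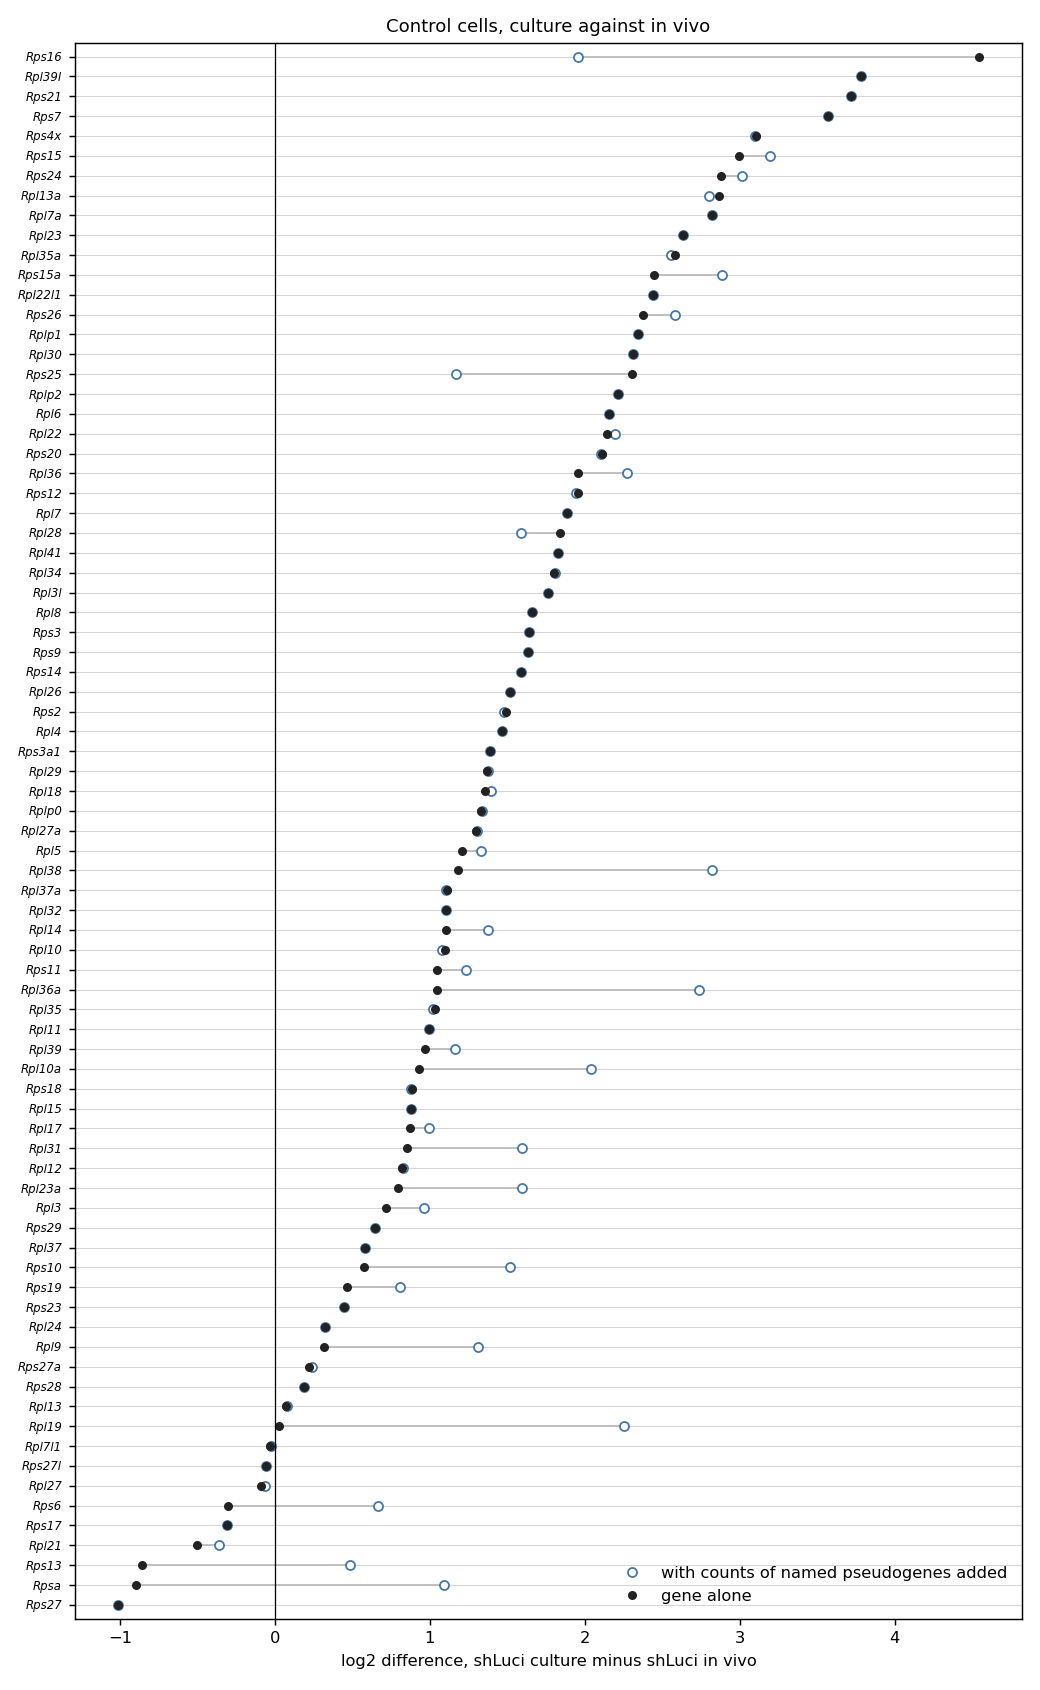
Log2 difference between control cells (shLuci culture minus shLuci in vivo) of 79 of the 82 members, from the gene's own counts (filled) and with the counts of the pseudogenes named after it added (open, joined by a line). Most members lie above 0, with a median of 1.31 over all members, and Rpsa and Rps13 move from −0.89 and −0.85 to 1.09 and 0.49.

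Other lists of the translation machinery were fitted on the same libraries. The 77 mitochondrial ribosomal protein genes tested, which serve the separate ribosome of mitochondria, had a median log2 fold change of −0.01 in culture, with none called in either direction (1 with an unadjusted p under 0.05, lower). In vivo, 3 of 78 were called lower, with Mrpl37 (−0.28 ± 0.06, adjusted p = 0.0194) and Mrpl43 (−0.27 ± 0.07, adjusted p = 0.0326) the lowest. Between control cells their median was −0.55, with 58 of 78 called lower in culture and 3 higher. All 8 genes listed with the elongation factors had a negative log2 fold change in culture (median −0.21), and Eef1g, part of the complex that reloads elongation factor 1A, was called lower (−0.35 ± 0.08, adjusted p = 0.0168); in vivo none was called. Between control cells, 6 of the 8 were called higher in culture, with the highest value, 3.22 ± 0.15, for Tpt1, which encodes a translationally controlled protein that is not itself an elongation factor. Fau, which encodes a ribosomal protein fused to a ubiquitin-like domain, did not pass the test in culture (log2 fold change −0.10 ± 0.16, adjusted p = 0.746). Rack1, a protein of the small subunit outside the naming scheme, was at 2994 ± 855 CPM in shLuci and 2210 ± 115 CPM in shRad21 in culture (−0.44 ± 0.17, adjusted p = 0.114), with the same wide spread among shLuci libraries.

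The genes that build ribosomes and regulate translation had few calls in culture. These were in both directions for assembly factors and RNA polymerase I and only lower for initiation factors and for kinases and regulators. The shares called lower were 2.74% for assembly factors, 5% for RNA polymerase I, 5.56% for initiation factors, and 13.3% for kinases and regulators, beside the 8.06% of all genes. Of 73 ribosome assembly factors tested in culture, 49 had a negative log2 fold change (median −0.05), with Nop16 (−0.41 ± 0.11, adjusted p = 0.0313) and Rrp1b (−0.38 ± 0.09, adjusted p = 0.0155) called lower and Utp6 higher (0.33 ± 0.07, adjusted p = 0.0119). In vivo, 1 of 73 was called, Utp6 again higher (0.26 ± 0.06, adjusted p = 0.0226). Of 20 genes of RNA polymerase I, Polr1a, its largest subunit, fell in culture (−0.34 ± 0.09, adjusted p = 0.0334) and Ubtf, which opens ribosomal DNA, rose (0.49 ± 0.08, adjusted p = 0.00225), and none was called in vivo (0 with an unadjusted p under 0.05). Of 36 genes listed with the initiation factors, 2 fell in culture, the poly(A) binding protein gene Pabpc1 (−0.33 ± 0.08, adjusted p = 0.0195) and Eif4ebp1 (−0.53 ± 0.12, adjusted p = 0.0140). Eif4ebp1 encodes an inhibitor of initiation. In vivo 1 rose, Eif1 (0.28 ± 0.07, adjusted p = 0.0394). Among 15 kinases and regulators, Myc and Eif4ebp1 fell in culture, and in vivo Mycn (1.18 ± 0.11, adjusted p = 0.000189) and Mknk1 (0.43 ± 0.10, adjusted p = 0.0263) rose and Eef2k, the kinase of elongation factor 2, fell (−0.38 ± 0.08, adjusted p = 0.0144). The knockdown effect on Myc and Mycn differed between the experiments, by −0.97 ± 0.14 (adjusted p = 0.00127) and −1.25 ± 0.15 (adjusted p = 0.000367), culture minus in vivo.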

How the data were processed

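RNA of 12 libraries was sequenced as single reads of 51 bases. By the paper and the labels, the authors removed ribosomal RNA reads, trimmed, mapped to GRCm38 with TopHat2 2.0.11, and counted reads per gene with HTSeq-count 0.6.1; the annotation release and strand setting are not given in the sources used here. The deposited values are these counts, without normalization. Groups and replicate numbers come from the labels.

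Symbols were matched to GENCODE M21 for 45229 of 46078 identifiers (849 others held 0.105% of counts). Counts were tested with edgeR 4.0.16 in R 4.3.3 (TMM, filterByExpr with at least 10 counts, quasi-likelihood test, two-sided, Benjamini-Hochberg over all genes tested, threshold 0.05), separately in culture and in vivo, and over all 12 libraries for control cells and the interaction. Depth was 15235129 to 29846689 counts. Between replicates, the chi-square of the counts divided by its degrees of freedom was 6.16 to 22.6, above sampling noise. No library was therefore treated as a second sequencing of another, but the measure cannot show that they are biological replicates. Sequence windows and figures used Python 3.11.15, pandas 2.3.3, and matplotlib 3.10.9. Only the edgeR fits were tested on simulated counts, with changes larger than any knockdown difference of a member in culture or in vivo.

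Members, lists, and alternatives were chosen with earlier results of these data known. Genes are named from a rule (10 largest rises and falls per knockdown comparison, role groups, paralogs, the 2 largest changes of each pathway list), and those printed, and others such as Rpl19 and Rpl38, were picked after their values were seen. Deviations from group means of culture libraries with the same replicate number correlated at 0.252, 0.201, and 0.243 over all genes (different numbers, −0.314 to 0.0715), and at −0.0267, 0.0361, and −0.324 over members; the numbers come from the labels. Alternatives were DESeq2 1.42.0, other scalings and filters, offsets for GC content and length, pseudogene counts, the replicate block, a single model, and omission of each library. Single values of a few members and listed genes are not reported here; counts and medians include them.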

Additional observations from a re-analysis of the deposited data

How the results depend on the processing

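The members' median log2 fold change stayed negative under each alternative run, and with 1 library left out it ranged from −0.273 to −0.123 in culture, from −0.123 to −0.0423 in vivo, and from −0.194 to −0.0407 for the interaction. No member was called higher in either experiment. Counts of calls moved. In culture, 17 members were called lower with no filter, 15 with the replicate block, and 13 in a model of all 12 libraries. Of all genes in these fits, 6.03%, 11.2%, and 6.83% were called lower, the first over all 26672 genes with a count. With 1 library left out, from 0 to 36 members were called lower, beside 5.03% to 9.81% of all genes. Fewer or more libraries and residual degrees of freedom are part of these fits, and otherwise the cause was not tested. In vivo, the count was 3 with DESeq2, 2 with at least 10 counts in every library, 2 with GC and length offsets, and 0 in the model of all 12 libraries. Of all genes in these fits, 3.34%, 6.24%, 6.29%, and 6.15% were called lower, the first over all 31506 genes with a count. With a library left out, 0 to 1 members were called lower, beside 2.76% to 4.83% of all genes. In vivo, same-numbered libraries did not pair (correlations of 0.0271, 0.0362, and 0.0647), and the replicate block left the count at 1. For the interaction, the count of members with a more negative effect in culture was 2 with DESeq2, 1 with no filter, and 0 to 1 with a library left out. Of all genes in these fits, 2.28%, 2.9%, and from 1.95% to 3.13% were called in this direction, the first 2 over all 32923 genes with a count. Between control cells, the members' median was 1.14 with scaling to library size only, 1.44 with GC and length offsets, and 1.5 with pseudogene counts added. The members called lower there were 2 with pseudogene counts, beside 37.1% of all genes. With a library left out they were 4 to 7, with 7 without shLuci replicate 1 of culture, beside 35.5% of all genes in that fit. With pseudogene counts added, the members' share of counts was 2.28% and 1.95% in shLuci and shRad21 in culture and 0.821% and 0.757% in vivo, and as a share of protein-coding genes it was 1.73% in shRad21 in culture and 0.761% in shLuci in vivo.

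Some single genes changed sign. With pseudogene counts, Rps13 was at −0.0901 in culture, −0.0978 in vivo, and 0.487 between control cells, where Rpsa was at 1.09. In vivo, Rpl5 was at 8.25e-07 with DESeq2, 0.00709 with upper-quartile scaling, 0.0112 with library size only, and 0.0145 with no filter. Between control cells, Rps27l and Rpl7l1 were at 0.201 and 0.132 with GC and length offsets and at 0.193 and 0.125 with the replicate block as well. With a library left out, Rps27 ranged from −0.0903 to 0.148 in culture and from −0.103 to 0.124 in vivo. In vivo, Rpl10 ranged from −0.0174 to 0.158, Rpl5 from −0.136 to 0.0687, and Rpl11 from −0.0604 to 0.369. Between control cells, Rps27l ranged from −0.153 to 0.0862 and Rpl7l1 from −0.0794 to 0.0799. Rpsa and Rps13, called lower between control cells, are the called genes among these. Members with few counts, such as Rpl39l, limit what depth can show.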
